A study of Mus musculus with 7 samples.

Results

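A set of 6 genes that control how long other mRNAs last was followed through mouse neutrophils. They are the zinc finger genes Zfp36, Zfp36l1 and Zfp36l2, the anti-proliferative genes Btg1 and Btg2, and Zc3h12a, which encodes Regnase-1. They were chosen by name, and all 6 were present in each of the 7 count tables, whose rows together name 28719 gene symbols. Neutrophils of healthy male C57BL/6J mice, sorted as live (propidium iodide negative) CD11b+ Ly6G+ cells, were profiled in 6 libraries, with peripheral blood, bone marrow and spleen each sampled in run 1 and in run 2. The methods state that each library pools 3 mice, that 1 set of mice gave all tissues of a run, and that the mice were 6 weeks old in run 1 and 8 weeks old in run 2. A single further library of male mice of the same strain, 8 weeks old in the arthritis and IL-1β groups, held 5 conditions marked by hashtag oligomers, each pooled from 3 mice. These were untreated healthy blood, blood and joint lavage on day 7 of K/BxN serum transfer arthritis (serum on day 0 and day 2), lung lavage 3 h after 25 ng IL-1β given intranasally, and peritoneal lavage 3 h after 25 ng IL-1β given intraperitoneally. No group carried a genetic alteration.

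The level of most mRNAs depends on decay as well as on synthesis. Zfp36, also called tristetraprolin, and its relatives Zfp36l1 and Zfp36l2 bind AU-rich stretches near the ends of mRNAs of cytokines and other short-lived transcripts and bring in the CCR4-NOT complex, which removes the poly(A) tail. Btg1 and Btg2 also bind this complex and the poly(A)-binding protein, and so favour deadenylation of mRNAs more generally, and both are known for restraining proliferation. Regnase-1 is an endonuclease that cuts stem-loops of inflammatory mRNAs. In myeloid cells, Zfp36 and Zc3h12a are known as immediate early or NF-kB-driven genes that limit inflammatory output.

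The 250 bases before the start site are shown for the 3 members whose stretch held a match to a motif of a signal-driven factor (CRE, CArG box, EGR or AP-1), so that a reader can see how the members' start regions differ. They are RefSeq sequences on GRCm38.p6, written 5′ to 3′ on the gene's strand, and 5 of the 6 members were in the table of promoters (Zfp36l2 was not). Capitals mark matches of motifs searched on both strands: the CRE (TGACGTCA), the AP-1 site (TGANTCA), the EGR site (GCGGGGGCG), the TATA motif (TATAAA), and, by name, the CArG box and the NF-kB site. Zfp36 lies on chromosome 7 (minus strand, window chr7:28379229-28379478), Zfp36l1 on chromosome 12 (minus strand, window chr12:80113014-80113263) and Btg2 on chromosome 1 (minus strand, window chr1:134079156-134079405).
Zfp36: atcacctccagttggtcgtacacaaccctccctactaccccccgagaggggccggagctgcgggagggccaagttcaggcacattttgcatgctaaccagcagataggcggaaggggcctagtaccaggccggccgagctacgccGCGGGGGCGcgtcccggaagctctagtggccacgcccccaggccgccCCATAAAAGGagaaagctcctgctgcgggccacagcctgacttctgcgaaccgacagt
Zfp36l1: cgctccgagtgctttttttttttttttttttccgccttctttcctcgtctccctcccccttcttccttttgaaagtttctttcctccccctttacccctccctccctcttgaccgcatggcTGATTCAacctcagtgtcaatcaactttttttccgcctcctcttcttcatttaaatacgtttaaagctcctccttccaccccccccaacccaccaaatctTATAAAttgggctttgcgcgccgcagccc
Btg2: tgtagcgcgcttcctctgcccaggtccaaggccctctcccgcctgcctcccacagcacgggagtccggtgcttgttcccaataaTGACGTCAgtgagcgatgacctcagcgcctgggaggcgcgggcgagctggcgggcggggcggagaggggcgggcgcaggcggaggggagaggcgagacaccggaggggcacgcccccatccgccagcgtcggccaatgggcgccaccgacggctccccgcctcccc

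The Zfp36 window held an EGR match that ended 96 bases before the start site and a CArG box 48 bases before it. The Zfp36l1 window held an AP-1 match at 122 bases and a TATA match at 23 bases. The Btg2 window held a CRE match at 158 bases. Btg1 had a TATA match at 20 bases, and the Zc3h12a window held none of these motifs. Over 32851 promoter windows of the same length, 1.55% held the CRE, 1.47% the CArG box, 6.75% the AP-1 site, 2.57% the EGR site, 7.25% the NF-kB site and 12.4% the TATA motif. The gene bodies lie on GRCm38.p6 at chr7:28376784-28379228 (Zfp36), chr12:80107760-80113013 (Zfp36l1), chr17:84183924-84187947 (Zfp36l2), chr10:96617001-96622813 (Btg1), chr1:134074865-134079155 (Btg2) and chr4:125118414-125127881 (Zc3h12a). A match of letters is a description and does not show that a factor binds there.

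Levels are given as CPM, the unique molecular identifiers (UMIs, counts of captured molecules) of a gene per 1000000 UMIs of the cells kept. Reads came from one end of each transcript, so values were not divided by gene length, and capture can still differ between genes. Healthy cells were kept when at least 3% of their UMIs came from S100a8 and S100a9, which left 1135 to 3672 cells and 1360064 to 9104133 UMIs per library. Of the inflammation library, cells that the authors had assigned to a granulocyte (GN) class were kept, which left 292 to 2857 cells and 942688 to 10293966 UMIs per condition. All 10 neutrophil markers listed were above 0 in every group of cells. Erythroid markers (5 genes) summed to 30345 CPM in blood of run 2 and to at most 912 CPM elsewhere, and B cell markers (9 genes) to 927 CPM in spleen of run 2 and to at most 332 CPM elsewhere. Monocyte or macrophage markers (11 genes) summed to 1391 and 1020 CPM in bone marrow (runs 1 and 2), 1157 and 356 in spleen and 640 and 269 in blood, and to at most 389 CPM in the 5 conditions. Their part in the tissue results was not tested. Values without cells that hold such markers are given beside the results for bone marrow against blood only. Pairs of libraries shared at most 36 cell barcodes.

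In healthy mice, all 6 regulators were lowest in bone marrow. Bone marrow neutrophils had significantly less mRNA of every member than blood neutrophils, by 1.38 (Zfp36l2) to 2.63 (Zfp36l1) on the log2 scale, by edgeR's quasi-likelihood test on summed counts with the run as block and Benjamini-Hochberg adjusted p of 0.0056 to 0.0121. Of all 7809 genes tested, 11.7% were called lower and 9.94% higher in bone marrow. The median log2 difference of the members was −1.78, against 0.02 over all genes.

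Zfp36, the founding AU-rich element binder, stood at 332 and 234 CPM in blood (runs 1 and 2), at 105 and 207 in spleen and at 65.9 and 68.8 in bone marrow. The bone marrow libraries were below all others, and the spleen libraries lay below both blood libraries, though close to blood in run 2. The difference between bone marrow and blood was −1.78 ± 0.28 (log2, SE; adjusted p = 0.00786, edgeR). In Zfp36l1, the bone marrow libraries held 6.83 and 10.3 CPM, those of spleen 18.6 and 92.0 and those of blood 54.4 and 73.0. Its spleen values spanned the blood values, and its bone marrow values lay below both. It had the largest difference of the 6 members between bone marrow and blood, −2.63 ± 0.38 (adjusted p = 0.00614, edgeR). Zfp36l2 was at 22.8 and 409 CPM in blood, 11.9 and 245 in spleen, and 8.24 and 118 in bone marrow. Within each run its order was bone marrow, spleen, blood, but the tissues overlapped when runs were not told apart. Its difference between bone marrow and blood, with the run as block, was −1.38 ± 0.22 (adjusted p = 0.00825, edgeR).

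Btg1 was the most abundant member in every library, at 861 and 3509 CPM in blood, 394 and 3726 in spleen, and 180.4 and 729.7 in bone marrow. Within each run, bone marrow was lowest, by −1.98 ± 0.28 against blood (log2, SE; adjusted p = 0.00561, edgeR). Btg2, a p53 target that shares the CCR4-NOT binding domain of Btg1, was at 462 and 679 CPM in blood, 185 and 658 in spleen, and 137 and 186 in bone marrow. Spleen was nearer to bone marrow in run 1 and nearer to blood in run 2, and the difference between bone marrow and blood was −1.52 ± 0.28 (adjusted p = 0.0121, edgeR). Zc3h12a was the least abundant member in 6 of 6 libraries, at 22.1 and 29.3 CPM in blood, 7.81 and 24.0 in spleen, and 5.42 and 6.81 in bone marrow. These levels rest on 21 to 102 UMIs per library. Even so, the 95% Poisson intervals of bone marrow (at most 8.73 CPM) and blood (at least 14.9 CPM) did not overlap, and the difference was −1.78 ± 0.30 (adjusted p = 0.00933, edgeR).

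**Figure D1:**
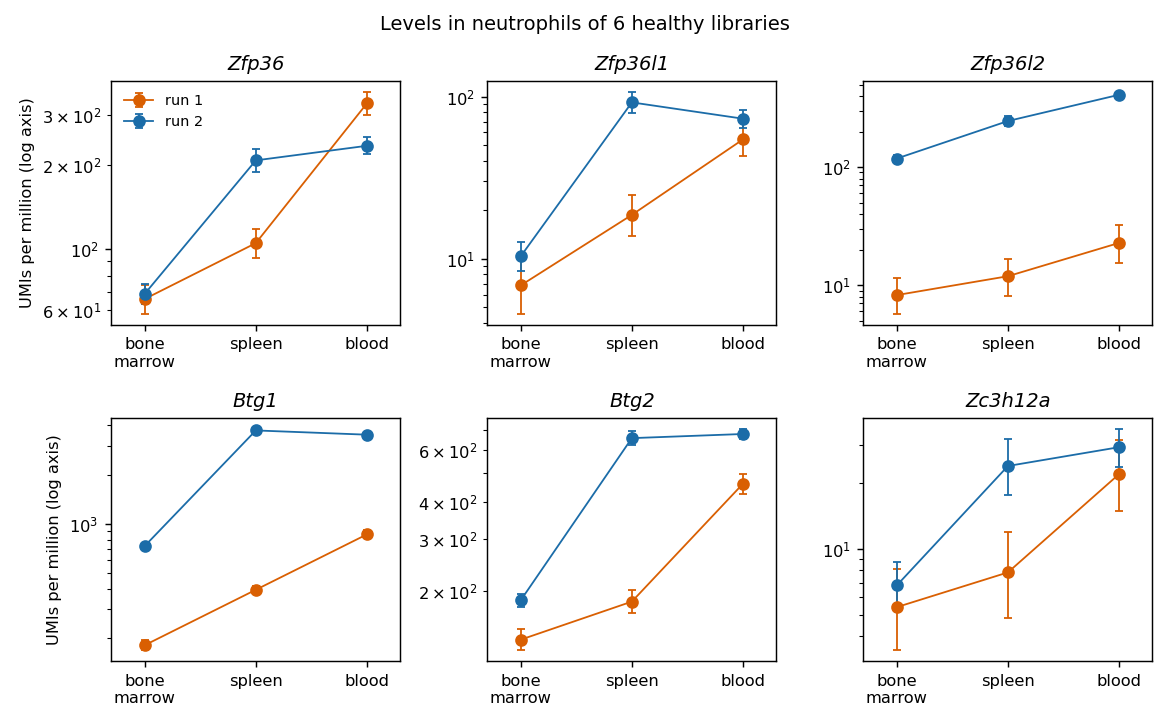
Levels of the 6 regulators (CPM, log axis) in neutrophils of bone marrow, spleen and blood, with 1 point per library, lines joining the libraries of a run, and bars for 95% Poisson intervals (counting error only). Bone marrow is lowest for every gene in both runs (for example 65.9 and 68.8 CPM for Zfp36, against 332 and 234 in blood), and the runs lie apart for Zfp36l2 and Btg1.

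These calls needed both blood libraries and the pairing of tissues by run. Without blood of run 1 the adjusted p of the 6 members rose to 0.103 to 0.191, and without blood of run 2 to 0.0614 to 0.149, while the direction stayed lower in bone marrow for all 6. Without bone marrow of run 2, Zfp36l2 alone lost its call. Without the run as block, 0 of 6 members were called by edgeR at an adjusted p under 0.05 (4 had an unadjusted p under 0.05). The shares over all genes under that setting are not given, so these counts describe the setting and not the members. Without cells holding a UMI of another cell type's marker, Zfp36, Zfp36l1, Btg1 and Btg2 kept their call. Zfp36l2 (adjusted p = 0.111, edgeR) and Zc3h12a (0.409) did not. This choice kept 141 of 1206 gated cells in bone marrow of run 1 and 615 of 3426 in run 2. In blood it kept 786 of 1306 and 767 of 3672. Of the marrow cells of high granule share (a class defined below), 24 of 640 and 51 of 1179 stayed. Granule share and the number of UMIs thus changed along with the markers. The kept and lost calls therefore do not single out other cell types, whose part was not tested.

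Spleen lay between bone marrow and blood for every member in run 1. In run 2 it did so except for Zfp36l1 (92.0 CPM, against 73.0 in blood) and Btg1 (3726 against 3509), which were highest in spleen. None of the 6 members differed between spleen and blood by edgeR at an adjusted p under 0.05, where 0.0% of all genes were called higher and 0.0512% lower in spleen. At an unadjusted p under 0.05 there were 3 members (Zfp36, Zfp36l2 and Zc3h12a), and DESeq2 also called none after adjustment. No share over all genes is given for the unadjusted limit, so that count is not read as a result about the members. Estimates ran from −0.80 ± 0.28 for Zfp36 to −0.38 ± 0.27 for Btg1 (log2, SE), and these did not pass. Against bone marrow, spleen neutrophils had more Zfp36l1 (2.25 ± 0.38, adjusted p = 0.0306, edgeR) and more Btg1 (1.59 ± 0.28, adjusted p = 0.0329). These were 2 of 6 members, where 2.24% of all genes were called higher and 0.512% lower. B cell markers were highest in spleen of run 2 (927 CPM). Cells outside the gate in that library held 213 CPM of Zfp36l1 (92.0 in the gate) and 2035 of Btg1 (3726 in the gate). The part of other cell types in these 2 calls was not tested. Zfp36, Btg2, Zc3h12a and Zfp36l2 had estimates of 0.98, 0.98, 1.08 and 0.63 that did not pass (adjusted p of 0.135 to 0.224). Leaving out 1 library moved the count of members called between 0 (without either blood library, or without spleen of run 2) and 5 (without spleen of run 1), and it was 1 without bone marrow of run 2. It was also 0 without the run as block and 0 with limits on genes and mitochondrial UMIs per cell.

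The runs lay far apart for a pair of members. Zfp36l2 was 14.3 to 20.6 times and Btg1 4.05 to 9.45 times as abundant in run 2 as in run 1, in all 3 tissues. The range was 0.70 to 1.98 for Zfp36, 1.34 to 4.94 for Zfp36l1, 1.36 to 3.56 for Btg2 and 1.26 to 3.07 for Zc3h12a. Over 3428 genes the median ratio of run 2 to run 1 was 0.974 in blood, 0.972 in bone marrow and 1.35 in spleen, and 4.32% to 7.53% of genes were past 4-fold. Run, age of the mice and version of the authors' counting software changed together, and the sources differ on the chemistry of each library, so these cannot be told apart. The healthy blood of the inflammation library held 863 CPM of Zfp36l2 and 3389 CPM of Btg1, which is nearer to run 2 (409 and 3509) than to run 1 (22.8 and 861). The mean over both runs is therefore not a useful level for these genes (Zfp36l2 in blood 216 ± 273 CPM, SD, n = 2), and differences were taken within a run.

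Granule genes are transcribed early in neutrophil development and are shut off as the cells mature. Cells of each library were therefore also split by the share of their UMIs that came from Camp, Ngp, Ltf, Lcn2 and Chil3, all encoding granule or secreted proteins of immature neutrophils. Cells with under 1% were called low and those with 5% or more high, and their summed counts were compared with the library as block. Zfp36, Zfp36l2, Btg1 and Btg2 were higher in cells of low granule share, by 1.89 (Zfp36) to 3.11 (Btg1) on the log2 scale (edgeR, adjusted p of 1.87e-09 to 1.24e-05). Of 5361 genes tested, 25.3% were called higher and 21.5% lower in the low class. Zfp36l1 and Zc3h12a had 1 to 22 and 0 to 24 UMIs per library in the high class, so these 2 members passed the filter on low counts through the low class, where they are higher. Zfp36l2 had 1, 18 and 12 UMIs in the high class of run 1 (blood, bone marrow and spleen). It too passed the filter through the low class, so the filter favours its test as well. With no such filter (13562 genes), Zfp36l1 differed by 2.90 ± 0.30 (adjusted p = 5.44e-20, edgeR) and Zc3h12a by 1.47 ± 0.36 (0.000358), both higher in the low class.

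Btg1 had the largest difference, 3.11 ± 0.17 (log2, SE). It was at 76.2 to 344 CPM in cells of high granule share and at 586 to 4258 in those of low share, with no overlap between the classes. The intermediate cells (1% to 5%) lay between the other two in 6 of 6 libraries, at 215 to 1739 CPM. Btg2 went from 69.5 to 171 CPM (high) through 197 to 285 (intermediate) to 331 to 747 (low), a difference of 1.96 ± 0.16. Its 3 ranges did not overlap, whereas the intermediate range of Btg1 overlapped both of its other ranges. Zfp36 had 36.5 to 74.6 CPM in the high class, 85.3 to 164 in between and 134 to 434 in the low class, a difference of 1.89 ± 0.16.

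Zfp36l1 stood at 3.14 to 10.7 CPM in cells of high granule share and at 19.2 to 106 CPM in cells of low share. Its intermediate cells ran from 0 to 51.9 CPM, the 0 being blood of run 1, where a count of 0 allows up to 33.9 CPM. Zfp36l2 rose within each run, from 3.31 to 6.27 CPM to 8.74 to 31.8 CPM in run 1 and from 24.9 to 74.6 CPM to 249 to 423 CPM in run 2 (1.98 ± 0.25 over all libraries). Its intermediate cells were out of order in bone marrow of run 1, where they (19.7 CPM) were above the low class (8.74 CPM), and in spleen of run 1, where they (5.64 CPM) were below the high class (6.27 CPM). Zc3h12a rested on few molecules. It was at 0 UMIs in cells of high granule share in blood and spleen of run 2, which allows up to 32.0 and 12.4 CPM, and at 23.2 CPM in high and 23.7 CPM in low cells of blood run 1. With the filter on low counts its difference was 1.39 ± 0.42 (adjusted p = 0.0144, edgeR), a test the filter favours, and without spleen of run 1 the adjusted p was 0.0606.

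**Figure D2:**
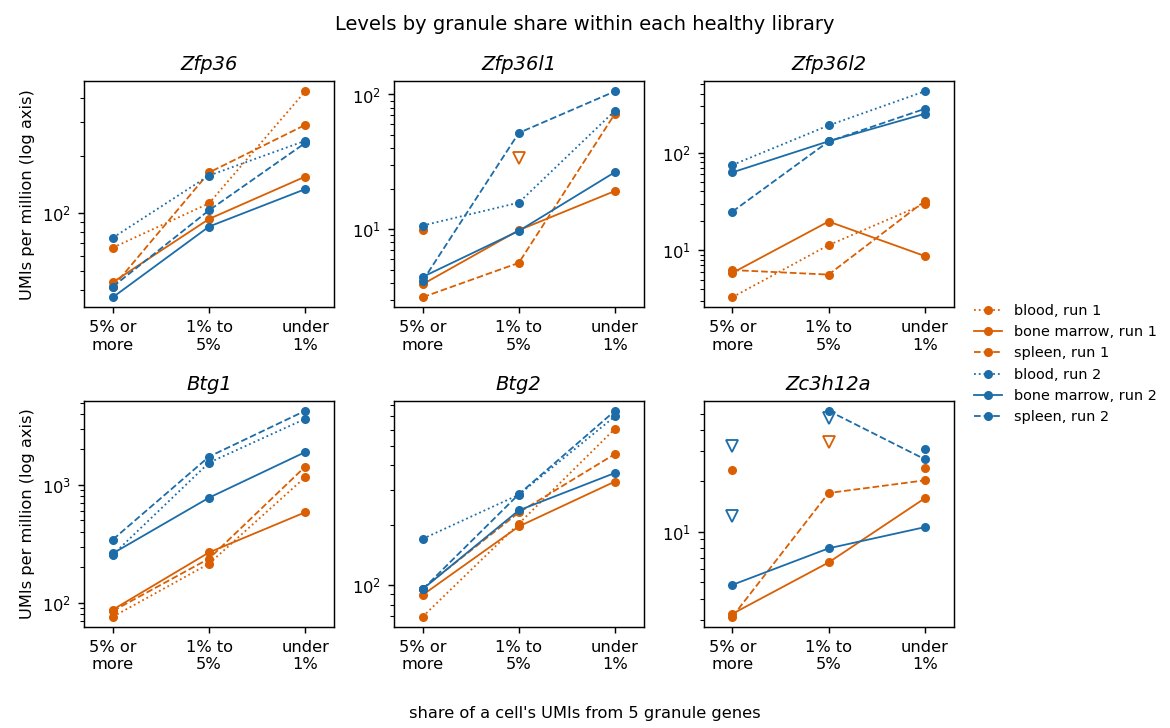
Levels (CPM, log axis) in cells of high, intermediate and low granule share within each of the 6 healthy libraries (colour: run; line style: tissue; open triangles: the limit that a count of 0 allows). Btg1, Btg2 and Zfp36 climb at each step in 6 of 6 libraries, while the Zc3h12a points are few and scattered.

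The share of immature cells differs between the tissues, so the tissues were also compared in cells of low granule share alone, an analysis added after the tissue results were seen. There, Zfp36 was lower in bone marrow than in blood by 0.83 ± 0.22 (adjusted p = 0.0368, edgeR) and Zfp36l1 by 1.33 ± 0.25 (0.00729), where 5.01% of all 6042 genes were called lower. For Zfp36 the low class held 156 and 134 CPM in bone marrow (runs 1 and 2) and 434 and 239 in blood. For Zfp36l1 it held 19.2 and 26.6 CPM in bone marrow and 73.2 and 75.8 in blood. The other 4 members had estimates of −0.54 to −0.88 that did not pass (adjusted p of 0.077 to 0.302), each smaller than among all cells of the gate. Spleen exceeded bone marrow in Zfp36l1 (1.58 ± 0.25, adjusted p = 0.00345) and Btg1 (0.91 ± 0.21, 0.0237) in these cells, where 4.39% of genes were called higher. Whether the effect of granule share depends on the tissue was tested as an interaction, and none of the members passed (edgeR, adjusted p of 0.267 to 0.869, 2.29% of genes called). Only Btg1 had an unadjusted p under 0.05 there.

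In the inflammation library each condition is 1 sample, so no difference between conditions was tested. Values carry 95% intervals that cover counting error only, and folds past 2 are called as a rule of size. The comparisons of the joint, lung and peritoneum with healthy blood share that healthy blood sample. At these 3 sites the members' values did not all lie on one side of it. Zfp36l1 was 3.48 to 4.84 times the level of healthy blood at all 3 sites, Zc3h12a was high only after IL-1β, Btg2 was past 2-fold in the joint when scaled to totals (and at all 3 sites with TMM factors), and Zfp36l2 was far lower after IL-1β. Levels of a typical gene shifted as well. The median gene stood at −0.36 (log2) of healthy blood in arthritic blood, −0.42 in the joint, −0.86 in the lung and −0.90 in the peritoneum, so log2 folds relative to that median are also given for the 3 sites.

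Zfp36 was at 677 CPM in healthy blood (630.2 to 727), 564 in arthritic blood, 869.8 in the joint, 1072 in the lung and 1561 in the peritoneum (1483 to 1643). Of these conditions, the peritoneum was past 2-fold of healthy blood, at 2.31 (2.11 to 2.52), higher than for 89.6% of the genes compared. Relative to the median gene it stood 0.78 higher in the joint and 1.52 higher in the lung (log2). Zfp36l1 was at 144 CPM in healthy blood and 150.0 in arthritic blood, but at 511 in the joint, 696 in the lung and 502 in the peritoneum. Both blood samples were thus low and all 3 tissue sites high, with folds of 3.55 (3.04 to 4.18), 4.84 (4.09 to 5.75) and 3.48 (2.91 to 4.19) over healthy blood. Relative to the median gene these were log2 values of 2.24, 3.13 and 2.70.

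Zfp36l2 was at 863 CPM in healthy blood, 703 in arthritic blood and 803 in the joint, which lie close together, and at 136 in the lung and 41.4 in the peritoneum. The lung value was 6.34 (5.40 to 7.47) times and the peritoneum value 20.9 (15.2 to 29.5) times lower than healthy blood. Among the 4018 genes compared, only 0.423% were further down in the peritoneum, and 6.69% of 4053 genes in the lung. Relative to the median gene the log2 values were −1.80 and −3.48. In the joint it stood 0.31 above that median, with a fold of 0.931 (0.871 to 0.996) over healthy blood. Against the mean of healthy blood of runs 1 and 2, the Zfp36l2 folds were 0.63 in the lung, 0.19 in the peritoneum, 3.72 in the joint and 3.25 in arthritic blood. The runs held 22.8 and 409 CPM, so this mean joins unlike levels. The lung (136 CPM) and peritoneum (41.4 CPM) values lay above blood of run 1 and below blood of run 2. The same reference also moved other members, Zfp36 to 3.08 in the joint, 3.79 in the lung and 5.53 in the peritoneum, Zfp36l1 to 8.03, 10.9 and 7.88, and Zc3h12a to 1.63, 8.61 and 16.2 in that order. For Btg1 these folds were 2.29, 2.37 and 1.97, and for Btg2 2.36, 1.62 and 1.33.

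Zc3h12a was at 49.8 CPM in healthy blood, 35.3 in arthritic blood and 41.9 in the joint, with overlapping intervals, and at 221 (196 to 248) in the lung and 417 (377 to 460.2) in the peritoneum. Its folds over healthy blood were 4.44 (3.33 to 6.02) and 8.37 (6.32 to 11.3) at the IL-1β sites and 0.841 (0.635 to 1.13) in the joint. Relative to the median gene it stood 3.01 higher in the lung, 3.97 in the peritoneum and 0.17 in the joint (log2). Btg1 was at 3389 CPM in healthy blood, 2978 in arthritic blood, 5008 in the joint, 5171 in the lung and 4311 in the peritoneum. Its folds of 1.48, 1.53 and 1.27 stayed under 2, though they were 0.98, 1.47 and 1.25 above the median gene (log2). Btg2 was at 573 CPM in healthy blood, 527 in arthritic blood, 1349 (1327 to 1372) in the joint, 923 in the lung and 762 in the peritoneum. The joint was highest, with a fold of 2.35 (2.17 to 2.55), against 1.61 in the lung and 1.33 in the peritoneum. Relative to the median gene the sites lay closer together, at 1.65, 1.55 and 1.31 (log2), and with TMM factors the folds were 3.46, 3.01 and 2.50.

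**Figure D3:**
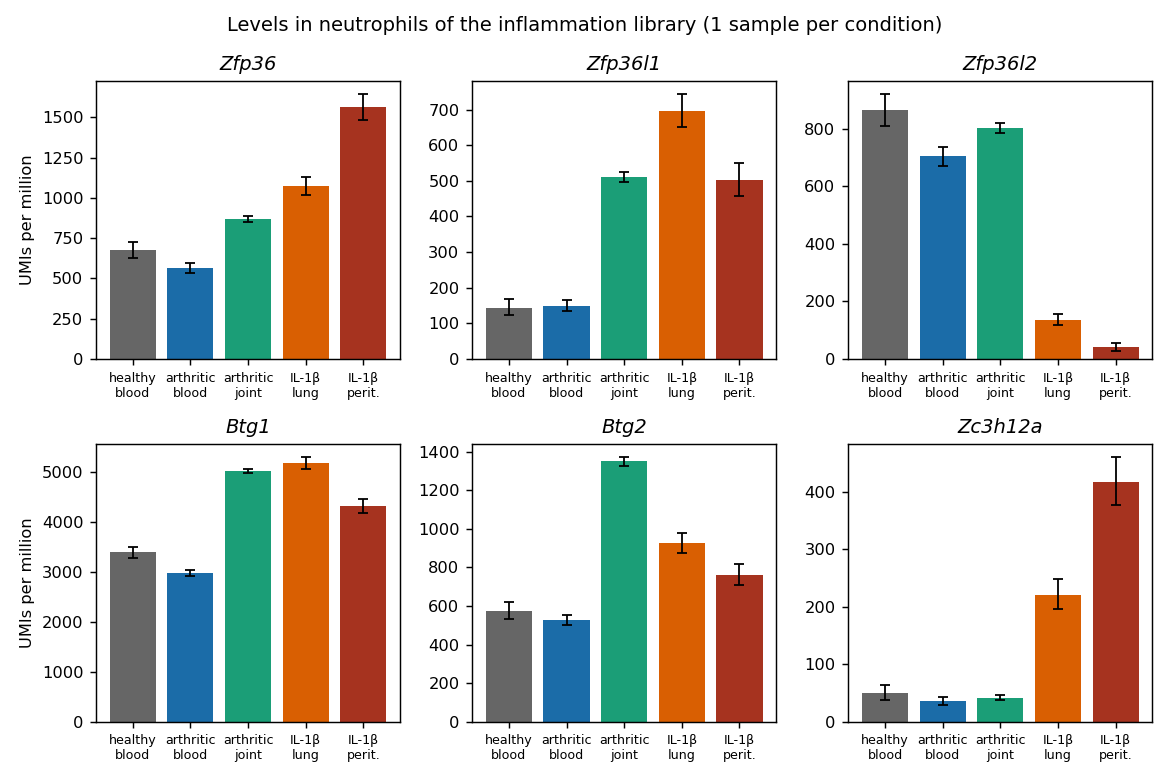
Levels (CPM, linear axes from 0) in neutrophils of the 5 conditions of the inflammation library, 1 sample each, with 95% Poisson intervals (counting error only). Zfp36l2 is at 863 CPM in healthy blood and at 41.4 in the IL-1β peritoneum, where Zc3h12a is highest at 417, and Btg2 is highest in the joint at 1349.

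Set against all genes, 2 of 6 members were past 2-fold higher in the joint (9.96% of genes, with 20.1% lower), 2 higher and 1 lower in the lung (12.1% and 45.0%), and 3 higher and 1 lower in the peritoneum (11.8% and 46.2%). In arthritic blood 0 of 6 members were past 2-fold either way, with 0.591% of genes higher and 5.37% lower. The lowest member there was Zc3h12a at 0.71 (0.50 to 1.00) and the highest was Zfp36l1 at 1.04 (0.87 to 1.26). Against arthritic blood, the joint was past 2-fold for Zfp36l1 (3.41, 3.08 to 3.78) and Btg2 (2.56, 2.42 to 2.70), where 13.1% of genes were higher and 7.16% lower. Between the IL-1β sites, the lung had 3.29 (2.32 to 4.78) times the Zfp36l2 of the peritoneum, and 0.53 (0.45 to 0.62) times its Zc3h12a, short of the limit, where 7.68% of genes were higher and 7.8% lower. With TMM factors in place of the total, all 6 members were past 2-fold in the lung and in the peritoneum, 5 higher and Zfp36l2 lower, and Btg1 passed in the joint as well. The median gene moves with this scaling as well. The shares of genes given above hold for scaling to totals, and none was counted with TMM factors. The counts of members under TMM are therefore not read as a result about the members. Under it Zfp36l2 (1.37) and Zc3h12a (1.24) turned to above healthy blood in the joint, and Zfp36 (1.15), Zfp36l2 (1.12), Btg1 (1.21) and Btg2 (1.27) did so in arthritic blood.

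The make-up of the Zfp36 family differed between the conditions. Of the UMIs of the 3 Zfp36 genes, Zfp36l2 made up 51.2% in healthy blood and 49.6% in arthritic blood. It made up 36.8% in the joint, 7.15% (95% Clopper-Pearson interval 6.18 to 8.23) in the lung and 1.97% (1.40 to 2.68) in the peritoneum. Zfp36 took 40.2% in healthy blood, 56.3% in the lung and 74.2% in the peritoneum, and Zfp36l1 had its largest share of these 5 conditions in the lung, at 36.6%. The summed level of the 3 genes was 1685 CPM in healthy blood, 1417 in arthritic blood, 2184 in the joint, 1905 in the lung and 2105 in the peritoneum. In the healthy libraries Zfp36l2 was 5.58% to 10.2% of the family in run 1 and 45.1% to 59.9% in run 2. Btg1 was 84.8% to 85.5% of Btg1 and Btg2 UMIs in 4 of these conditions and 78.8% (78.5 to 79.1) in the joint.

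**Figure D4:**
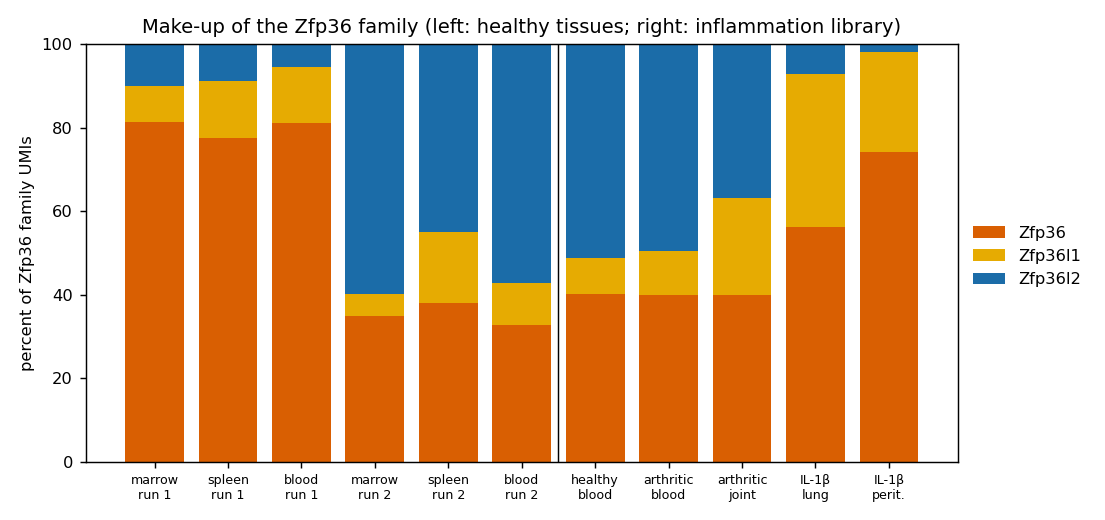
Percent of all UMIs of Zfp36, Zfp36l1 and Zfp36l2 that each gene contributed, for the 6 healthy libraries (left of the line) and the 5 conditions of the inflammation library (right). Zfp36l2 makes up 51.2% in healthy blood and 1.97% in the IL-1β peritoneum, and it is the smallest or next to smallest part in run 1.

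The authors' ImmGen classes allowed a look at cells of like class in different sites. Such classes were assigned from expression and the values are a description. Among cells classed GN.Arth.SynF (neutrophils of arthritic synovial fluid), Zfp36l2 was at 801 CPM in the joint (2260 cells), 131 in the lung (275 cells) and 29.5 in the peritoneum (101 cells). Zc3h12a in the same class was at 40.6, 220.3 and 438 CPM. The contrast between joint and IL-1β sites was thus present within 1 class. Within the joint, Btg2 was at 1417 CPM in GN.Arth.SynF cells, 1341 in GN.Bl cells, 987 in GN.UrAc.PC cells and 590.4 in GN.Thio.PC cells.

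The share of cells with at least 1 UMI of a gene was also counted. Each cell was thinned to 1000 UMIs in the inflammation library, which left out 61 to 155 shallower cells per condition. Zfp36l2 was detected in 52.8% of healthy blood cells, 51.0% in arthritic blood, 48.9% in the joint, 12.6% (8.97 to 17.0) in the lung and 3.46% (1.51 to 6.71) in the peritoneum. Without thinning these shares were 69.0%, 80.0%, 76.4%, 27.1% and 9.25%. Zc3h12a was detected in 5.37%, 2.67%, 3.99%, 18.9% and 32.9% of cells in the same order (10.6%, 10.1%, 12.2%, 44.7% and 61.3% without thinning). Zfp36l1 was detected in 10.5% of cells in healthy blood, 12.3% in arthritic blood, 32.0% in the joint, 41.3% in the lung and 27.3% in the peritoneum. Btg1 was detected in 91.8% to 97.4% of cells of the 5 conditions.

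In healthy tissues cells were thinned to 500 UMIs, which left out 26 cells of blood run 1. In run 1, Btg1 was then detected in 37.0% of cells in blood, 28.0% in spleen and 11.0% in bone marrow, and in run 2 in 78.9%, 81.1% and 35.2% in that order. Zfp36 was detected in 18.8%, 8.81% and 4.31% of cells in run 1 and in 11.4%, 11.0% and 4.67% in run 2. Zc3h12a was detected in 0.249% and 0.292% of bone marrow cells and at most 1.61% elsewhere. Free RNA gives UMIs in cells that do not express a gene, so the same shares were counted in erythroid cells. At least 50% of the UMIs of these cells came from erythroid markers. Their 500 thinned UMIs thus held fewer of other genes than in neutrophils, and their shares are low as a measure of free RNA. Among 742 of them in blood of run 2 (median 2756.5 UMIs, against 826 in the neutrophils beside them) the thinned shares were 7.01% for Btg1, 1.21% for Btg2, 0.809% for Zfp36, 0.674% for Zfp36l1, 0.135% for Zfp36l2 and 0.27% for Zc3h12a. The Zc3h12a and Zfp36l1 shares in bone marrow (0.663% and 0.613% for Zfp36l1) were close to those of these erythroid cells, and free RNA in the bone marrow libraries themselves was not measured.

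The proteins that the members work with were examined from lists of known factors, each described by how many of its members passed. Over all genes tested between bone marrow and blood, 9.94% were called higher and 11.7% lower in bone marrow, and the counts of each list are to be read against these shares. Of the deadenylase list, made of CCR4-NOT and PAN subunits and poly(A)-binding proteins, 15 genes were tested, and 1 rose in bone marrow and none fell, which is near the share over all genes. That gene was Cnot7, a catalytic subunit (1.85 ± 0.36, adjusted p = 0.014, edgeR), which was also lower in cells of low granule share (−1.48 ± 0.22), opposite to the 6 regulators. It was singled out after its value was seen. The median of the list was −0.19. Of 15 genes of decapping and 5′ decay, 3 were higher and 1 lower in bone marrow. The lower one was Ddx6, an RNA helicase of decapping (−1.68 ± 0.23, adjusted p = 0.00512, edgeR). Ddx6 was at 44.3 and 63.8 CPM in bone marrow (runs 1 and 2), and 154 and 280.4 in blood, with spleen (81.5 and 255) between them in each run. The higher ones were the subunits Lsm5 (1.95 ± 0.26, adjusted p = 0.00504, edgeR), Lsm6 (adjusted p = 0.00726, edgeR) and Lsm2 (1.30 ± 0.30). Of 10 genes of the RNA exosome and of the Ski complex that works with it, 3 were higher and 1 lower in bone marrow. The higher ones were Exosc8 (2.65 ± 0.47), Exosc7 (2.60 ± 0.51) and Wdr61 of the Ski complex (1.54 ± 0.37), and the lower one Exosc5 (−1.49 ± 0.31). In the decapping list the higher genes, each opposite to the 6 regulators, took a larger share than the 9.94% over all genes. The lower gene there took about the general share or less. In blood (runs 1 and 2), Exosc8 was at 2.21 and 2.87 CPM and Exosc7 at 8.09 and 1.15. Exosc8 thus passed the filter on low counts through other tissues, where it is higher, so no share is read from the exosome list.

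Relatives of the members did not all follow them. Of the other BTG and TOB genes only Tob1 and Tob2 were abundant enough, and neither passed between bone marrow and blood. Tob1, which also binds CCR4-NOT, was at 88.5 and 90.5 CPM in bone marrow and 89.7 and 108 in blood. In inflammation it was 108 CPM in healthy blood, 95.1 in arthritic blood, 58.1 in the joint, 26.5 in the lung and 33.9 in the peritoneum, so its lowest values were at the IL-1β sites. Of 5 tested genes related to Regnase-1 or Roquin, 3 were lower in bone marrow and 0 higher. N4bp1, which shares the nuclease domain of Regnase-1, was among them (−1.05 ± 0.23, adjusted p = 0.0205, edgeR), and so was Rc3h1, which encodes Roquin-1 (−1.14 ± 0.25, 0.0217). N4bp1 was at 335 CPM in healthy blood, 256 in arthritic blood, 206 in the joint, 647 in the lung and 1232 in the peritoneum. Malt1, the protease that cleaves Regnase-1, was at 31.1, 22.6, 26.8, 62.8 and 81.7 CPM in the same order. Both thus had their highest values at the IL-1β sites, as Zc3h12a did. Rc3h1 was lower at both (47.7 and 55.2 CPM, against 105 in healthy blood). The median gene was also lower there (−0.86 and −0.90, log2), and Rc3h1 lay near it.

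Of the 8 other AU-rich element binders and kinases of tristetraprolin, 1 passed between bone marrow and blood (Mapkapk3, 1.59 ± 0.38 higher in bone marrow, adjusted p = 0.0272, edgeR). In the inflammation library, Mapkapk2, the kinase that phosphorylates tristetraprolin and blocks its activity, was at 96.0 CPM in healthy blood, 79.1 in arthritic blood, 389 in the joint, 682 in the lung and 1411 in the peritoneum. Mapk14, which encodes the kinase p38α upstream of it, was at 195, 167, 71.8, 26.5 and 42.4 CPM in the same order. Hnrnpd, the binder also called AUF1, was at 0.289 of its healthy blood level in the lung and 0.304 in the peritoneum.

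The list of known target mRNAs of tristetraprolin or Regnase-1 held cytokine, chemokine and early response genes. Several of the 16 listed reached the level needed for a comparison between conditions only through the inflamed site, and some were tested between healthy tissues at a few CPM in bone marrow, so values of single genes are given and no count over the list. The chemokine gene Cxcl2 was at 209.8 CPM in healthy blood, 169 in arthritic blood, 7416 in the joint, 14116 in the lung and 6763 in the peritoneum. Il1b was at 3869, 3784, 7528, 12419 and 9993 CPM, and Ier3, an early response gene, at 128, 121, 626, 3817 and 1877. In healthy mice, bone marrow had less than blood of Il1b (−4.48 ± 0.42, adjusted p = 0.00223, edgeR) and of Nfkbiz (−1.49 ± 0.27, 0.0119). In cells of low granule share, Il1b was higher by 4.72 ± 0.20 (adjusted p = 1.70e-10, edgeR).

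The genes whose levels ran most like each member were sought over 11 sums of cells (6 libraries and 5 conditions) and 1154 genes of at least 100 CPM on average. Levels were log2(CPM + 10), centred within each dataset, and the likeness was Pearson's r. It is a description, since the sums share libraries, mice and depth. For Zfp36 the nearest was the inflammasome gene Nlrp3 (0.985), then Lrp10 and 2810474O19Rik. For Zfp36l1 it was Srgn (0.989), the granule proteoglycan, then Chmp4b and Sdcbp. For Zfp36l2 it was the ubiquitin ligase gene Mkrn1 (0.985), then Nudt4 and Chp1. For Btg1 it was Tpd52 (0.983), then Metrnl. For Btg2 it was the ectonucleotidase gene Entpd1 (0.983), then Atp2b1 and Vmp1. For Zc3h12a it was Birc3 (0.991), an inhibitor of apoptosis, then Fas and Ptpn1. Birc3 was at 112 CPM in healthy blood, 96.2 in arthritic blood, 133 in the joint, 436 in the lung and 798 in the peritoneum, against 49.8, 35.3, 41.9, 221 and 417 for Zc3h12a.

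Among the members, with centring, Btg1 and Btg2 were the most alike pair (0.944), and Zfp36l2 and Zc3h12a the least (−0.73). Zfp36l2 had values of −0.18 with Zfp36l1 and −0.15 with Zfp36. Without centring, Zfp36 and Zfp36l1 were the most alike (0.960, against 0.939 for Btg1 and Btg2), and Zfp36l2 had values of 0.493 with Zfp36l1, 0.445 with Zfp36 and 0.178 with Zc3h12a. Summed over the 6 members, levels were 404 and 1120.0 CPM in bone marrow (runs 1 and 2), 722 and 4952 in spleen, and 1754 and 4933 in blood. They were 5697 in healthy blood of the inflammation library, 4958 in arthritic blood, 8583 in the joint, 8219.8 in the lung and 7594 in the peritoneum. Btg1 made up 44.6% to 75.2% of these sums.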

How the data were processed

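Droplet single-cell RNA-seq of sorted neutrophils was analysed from a table of UMI counts per library that the authors deposited, made with Cell Ranger on mm10 before their cell filters. In run 1 the deposited tables list only detected genes. The labels and the paper differ on chemistry and instrument. The authors' table of cells gave hashtag conditions and ImmGen classes. The members and gene lists were chosen with earlier results of these data known.

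No limit was set on genes or mitochondrial UMIs, healthy cells were not screened for doublets (the authors had removed hashtag doublets), and free RNA was not corrected. Counts were summed per library, so cells were never replicates (n = 2 pools of 3 mice per tissue). Tissues and granule classes were tested with edgeR 4.0.16 (quasi-likelihood, TMM factors, filter on low counts, run or library as block, Benjamini-Hochberg over all genes, FDR of 0.05) in R 4.3.3. DESeq2 1.42.0 was an alternative. A granule class of a library needed 10 cells. Same-run samples deviated together (Pearson r of 0.597, 0.55 and 0.631 over 7809 genes), and the methods state that 1 set of mice gave all tissues of a run. The scripts were tested on simulated data.

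Folds between conditions came from CPM, with exact binomial intervals, for genes of at least 20 CPM on average, and past 2-fold was the limit. Levels have exact Poisson intervals, shares exact binomial ones, at 95%. Limits for a count of 0 are 3 counts over the total. All cover counting error only. Named genes were the members, up to 4 genes of highest mean CPM per list, and the 3 nearest genes of each member (1 of them is not reported here). Cnot7 and others called outside this rule are named after their values were seen. Thinning used 1 seeded draw. Alternatives comprised other gates, size factors, filters, blocks, scalings, references and left-out libraries.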

Additional observations from a re-analysis of the deposited data

Results flagged for a closer look

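Cells outside the neutrophil gate, which enter no comparison, held some members at over 2-fold the CPM of the gated neutrophils of their library. Zfp36l1 did so in 4 libraries. It was at 15.2 CPM (7 UMIs in 65 cells) in bone marrow of run 1, 120 CPM (120 UMIs in 397 cells) in bone marrow of run 2, 169 CPM (32 UMIs in 84 cells) in spleen of run 1 and 213 CPM (883 UMIs in 2343 cells) in spleen of run 2. The gated neutrophils held 6.83, 10.3, 18.6 and 92.0 CPM. Zfp36l2 was at 23.9 CPM in bone marrow of run 1, 348 CPM in bone marrow of run 2 and 42.3 CPM in spleen of run 1, against 8.24, 118 and 11.9 CPM in the gate. Btg1 was at 1598 CPM in bone marrow of run 2 (729.7 in the gate), and Zc3h12a at 21.1 CPM, on 4 UMIs, in spleen of run 1 (7.81 in the gate). The part of other cell types in these values was not tested.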

How the results depend on the processing

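Members called between bone marrow and blood numbered 6 and fell to 0 without the replicate block and to 2 in cells of low granule share only, and leaving out 1 library gave 0 to 6. Spleen against bone marrow had 2 members called, 0 without the replicate block, 0 with limits on genes and mitochondrial UMIs, and 0 to 5 leaving out 1 library. The pairing rests on shared mice. Spleen against blood had 0 in every setting and 0 leaving out 1 library. Over single genes, the direction was kept in 90 of 90 alternative values for bone marrow against blood, in 90 of 90 for spleen against bone marrow and in 81 of 81 for granule share. For spleen against blood it was kept in 85 of 90, the exceptions being Zfp36l1 at 0.16 without spleen replicate 1 (leaving out 1 library gave −1.12 to 0.16), 0.10 without cells holding other markers and 0.25 in cells of low granule share only, and Btg1 at 0.23 and 0.26 under the same pair of cell choices. Granule share had 6 called (Zfp36l1, Zfp36l2 and Zc3h12a passed the filter through the low class), 6 with no filter, 5 to 6 leaving out 1 library, and 3 without cells holding other markers, where 4 libraries and 3 of the 6 members could be tested. The cause of the other changes was not tested.

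With the mean of healthy blood of runs 1 and 2 as reference, members past 2-fold went from 0 to 2 in arthritic blood and from 2 to 5 in the joint. With TMM factors they went from 3 to 6 in the lung. With a 1.5-fold limit they went from 3 to 6 in the lung, from 2 to 4 for the joint against arthritic blood and from 1 to 2 between the IL-1β sites, where the gate on S100a8 and S100a9 also gave 2. Shares over all genes were not counted under these settings, so the counts describe the settings and not the members. Folds over healthy blood kept their direction in 36 of 36 alternative values in lung and in peritoneum, 32 of 36 in the joint and 25 of 36 in arthritic blood. Without centring, 7 of the 18 nearest genes were kept. Without thinning, the mean share of cells with a UMI over the 6 members, the 6 healthy libraries and the 5 conditions was 41.4% and not 27.8%. With 2 libraries per tissue, a missing call does not show equal levels.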
